A study of Homo sapiens with 4 samples.

Results

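MALAT1, NEAT1, HULC, UCA1, PVT1, CYTOR, FAM99A and FAM99B are long non-coding RNAs (lncRNAs) that are often studied in liver cancer. They were taken by name from the deposited table, which gave 8 of the 59652 genes used and 8 of its 16952 lncRNAs. The rule itself used no measured value, though the names were chosen with earlier results of these data known. MALAT1 was the most abundant of them by far, and in PLC cells it alone held 47.5% of all lncRNA reads at 5 mM glucose and 43.3% at 25 mM. UCA1 and MALAT1 were higher in PLC cells, HULC and NEAT1 were higher in Huh7 cells, and FAM99B had reads in Huh7 cells only. No member passed the test for a glucose change shared by both lines.

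MALAT1 and NEAT1 are nuclear RNAs. MALAT1 gathers in nuclear speckles, the stores of splicing factors, and NEAT1 is the scaffold around which paraspeckles form with NONO, SFPQ and other RNA-binding proteins. HULC is a liver-enriched cytoplasmic RNA known for its high level in hepatocellular carcinoma, and UCA1 is named for urothelial carcinoma and is raised in many tumours. PVT1 lies beside the MYC oncogene and is often amplified with it. CYTOR, also called LINC00152, is tied to cell migration and has a duplicated copy in the genome, MIR4435-2HG. FAM99A and FAM99B are liver-restricted RNAs that are lower in liver tumours than in normal liver.

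Huh7 and PLC (PLC/PRF/5) are established hepatocellular carcinoma lines, used here as wild-type cells. Cells of each line were kept for 48 h in glucose-free DMEM with fetal bovine serum to which 5 mM (low) or 25 mM (high) glucose was added. Each line and concentration gave 1 library of rRNA-depleted RNA, so none of the 4 conditions had a replicate and no difference between single libraries has a replicate check. The libraries of Huh7 cells held 21376239 counted reads at 5 mM and 30085303 at 25 mM, and those of PLC cells 30279716 and 16049686.

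Levels are given as FPKM, the reads on a gene scaled by the length of its exons and by the reads of the library. The 95% intervals are exact and cover counting error only. The exon length in the table is that of all annotated isoforms merged, which makes the FPKM of a gene with many isoforms small. For HULC it is 48395 bases over 78 exons, 27.1 times the main (canonical) transcript of GENCODE release 44, and for CYTOR, PVT1 and UCA1 it is 17.3, 10.2 and 1.76 times. Ratios of 1 gene between libraries do not depend on that length when nothing is added to the FPKM. Where a constant is added to both FPKM values, the ratio depends on the length, most of all at low FPKM. Whether a gene reaches a minimum FPKM depends on it as well.

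The 3′ ends of MALAT1 and NEAT1 are shown because MALAT1 and the full-length NEAT1 RNA are cut there by RNase P. Both keep an A-rich tract, encoded in the genome, in place of an added poly(A) tail. Removal of rRNA does not select for a tail, so such RNAs stay in the library. The stretches below are of hg38, plus strand, 140 bases each, at chr11:65505977-65506116 for MALAT1 and at chr11:65445401-65445540 for NEAT1. Capitals mark the A-rich tract and the pair of T-rich runs before it, which fold into a triple helix with it in the RNA.
MALAT1: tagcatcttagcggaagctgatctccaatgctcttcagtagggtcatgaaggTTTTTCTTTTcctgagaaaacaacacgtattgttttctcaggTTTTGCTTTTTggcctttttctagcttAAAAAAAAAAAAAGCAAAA
NEAT1: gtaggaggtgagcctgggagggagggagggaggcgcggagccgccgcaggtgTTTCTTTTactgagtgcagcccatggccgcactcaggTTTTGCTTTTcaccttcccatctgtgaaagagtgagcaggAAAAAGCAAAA
The tract is 19 bases long in MALAT1 and 11 bases in NEAT1. The annotated NEAT1 gene ends at its tract, whereas the MALAT1 gene runs 400 bases on, past the site of the cut. GENCODE lists 9 NEAT1 transcripts, which counts per gene do not tell apart.

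Primers that the study lists for MALAT1 and FAM99B are shown next, because the pair for FAM99B bears on how well this gene can be told from FAM99A.
MALAT1 forward: gccaaattgagacaatttcagc
MALAT1 reverse: cgaattcagggtgaggaagta
FAM99B forward: gctgggaagaggtcagaacc
FAM99B reverse: aatgttctgcaggtctcgct
Both MALAT1 primers match 1 place on chromosome 11 of hg38, within the single MALAT1 exon, and frame 116 bases at chr11:65501055-65501170. Each FAM99B primer matches 2 places on that chromosome, 1 in the exons of FAM99B and 1 in the exons of FAM99A. The canonical transcripts of this pair of genes match at 1027 of 1034 aligned bases (99.3%), with 9 gap positions. The stretch in which they differ most is shown in both, with the differing or inserted bases in capitals (bases 753 to 863 of the FAM99A transcript and 777 to 896 of the FAM99B transcript).
FAM99A: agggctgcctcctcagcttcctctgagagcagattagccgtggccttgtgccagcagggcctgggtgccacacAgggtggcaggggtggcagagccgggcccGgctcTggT
FAM99B: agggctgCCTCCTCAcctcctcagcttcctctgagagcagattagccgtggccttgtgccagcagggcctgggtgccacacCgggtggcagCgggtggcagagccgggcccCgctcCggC
This stretch holds 13 of the 16 positions at which the aligned transcripts differ.

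Repeated exon sequence of each member was measured by asking whether each 31-base window of its exons occurs again on the main chromosomes of hg38. None of 8799 windows of MALAT1 did. The share was 4.92% in NEAT1, 6.15% in HULC, 4.03% in PVT1 and 26.4% in UCA1. It was 64.6% in FAM99A, 80.3% in FAM99B and 81.3% in CYTOR. Of the CYTOR windows, 62.9% lie in exons of MIR4435-2HG, and of the FAM99B windows, 80.3% lie in exons of FAM99A. A read longer than 31 bases can span a base that differs, so these shares do not measure how reads were placed. How reads with several matches were counted is not given in the sources used here, so the counts of CYTOR, MIR4435-2HG, FAM99A and FAM99B are uncertain.

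MALAT1 (chr11:65497688-65506516, plus strand, 1 exon) had 637 and 519 FPKM in Huh7 cells at 5 and 25 mM glucose, and 2222 and 1941 FPKM in PLC cells. These values rest on 120236, 137750, 594110 and 275010 reads, and the groups of the lines do not overlap. With so few libraries a line, such separation describes the values and is no test, here and for other members. It was first among the lncRNAs by FPKM in every library other than Huh7 at 5 mM, where FP236383.5 was above it. The PLC level was 3.49 times that of Huh7 at 5 mM and 3.74 times at 25 mM. In a fit of both factors to all 4 libraries (edgeR's quasi-likelihood test), the line difference was a log2 fold change of 1.86 (SE 0.14, adjusted p = 3.03e-07). In bulk RNA, fewer cells that express a gene and less of its RNA in each cell cannot be told apart.

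NEAT1 (chr11:65422774-65445540, plus strand, 1 exon) lies 52147 bases before MALAT1 on the same strand and went the other way between the lines. Its level in Huh7 cells was 49.1 FPKM at 5 mM and 33.7 FPKM at 25 mM, and the PLC libraries had 19.9 and 21.1 FPKM in the same order. Both PLC libraries lie below both Huh7 libraries. The PLC level was 0.407 times that of Huh7 at 5 mM and 0.628 times at 25 mM, and the log2 fold change between lines was -0.98 (SE 0.20, adjusted p = 0.00156). FRMD8 was the nearest protein-coding gene before NEAT1 among those with at least 20 reads in a library. Its log2 difference of 0.67 between the lines (adjusted p = 0.0612) did not pass the test. The 4 short genes of the table that overlap NEAT1 and the 3 that overlap MALAT1 were all at 0 reads.

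UCA1 (chr19:15828206-15836328, plus strand, 6 exons) showed the largest difference between lines among the 6 members tested in the main analysis. It had 446 and 319 reads in the Huh7 libraries against 9694 and 6221 in the PLC libraries, or 5.02, 2.55, 77.1 and 93.3 FPKM in the order 5 and 25 mM. The PLC level was 15.1 times the Huh7 level at 5 mM and 35.2 times at 25 mM. The line test gave a log2 fold change of 4.57 (SE 0.31, adjusted p = 9.57e-08). By FPKM it was lncRNA number 301 and 886 in the Huh7 libraries and number 6 and 5 in the PLC libraries. LINC01764, on the opposite strand, shares 1083 exon bases with UCA1 and had 10, 12, 110 and 18 reads. It was counted apart from UCA1, and whether the counting used strand is not given in the sources used here. Of protein-coding genes with at least 20 reads in a library, the nearest on either side were the cytochrome P450 genes CYP4F12 and CYP4F11. They differed between the lines in opposite directions. CYP4F12 was lower in PLC cells (log2 -4.15, adjusted p = 2.77e-07) and CYP4F11 was higher (log2 5.24, adjusted p = 0.000206).

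HULC is listed on chr6:8435568-9294133, plus strand, a span of 858566 bases. The RefSeq gene HULC covers only 1588 of them (chr6:8652269-8653856), and 2.44% of the exon bases counted in the table lie inside it. Where in this span the reads fell is not given by a table of counts per gene. Reads were 178 and 249 in the Huh7 libraries and 31 and 27 in the PLC libraries. That is an FPKM of 0.172 and 0.171 for Huh7 and of 0.0212 and 0.0348 for PLC, or 4.67, 4.64, 0.574 and 0.944 with the length of the canonical transcript. Both PLC libraries were lower, at 0.123 (0.0811 to 0.181) times the Huh7 level at 5 mM and 0.203 (0.131 to 0.303) times at 25 mM, with nothing added to the FPKM. The line test gave a log2 fold change of -2.66 (SE 0.41, adjusted p = 0.000173). With 0.1 added to both FPKM values, as was done for the other members, the ratios are 0.445 and 0.497. The added value is above both PLC levels and below both Huh7 levels. SLC35B3, which shares 44 exon bases with HULC on the opposite strand, had 638, 841, 545 and 345 reads and did not pass the line test (log2 -0.55, adjusted p = 0.119).

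FAM99B (chr11:1683269-1685629, minus strand) had 8 and 14 reads in the Huh7 libraries and 0 in both PLC libraries. The Huh7 levels were 0.351 and 0.436 FPKM, and 3 reads would stand for 0.0928 and 0.175 FPKM in the PLC libraries. Against that floor, the PLC level was at least 3.78-fold lower at 5 mM and at least 2.49-fold lower at 25 mM. With the counting error of the Huh7 reads included, the 95% interval of the PLC to Huh7 ratio reaches up to 0.414 at 5 mM and 0.565 at 25 mM. FAM99A (chr11:1665597-1667856, plus strand) had 2 reads in Huh7 cells at 25 mM and 0 elsewhere, which gives no fold. Neither gene passed the filter on low counts, so neither was tested in the main analysis. Without that filter, edgeR gave FAM99B a log2 fold change of -6.34 for the lines (SE 2.54, adjusted p = 0.0473). That call lies close to the threshold and rests on the few reads above, and DESeq2 did not call FAM99B.

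PVT1 (chr8:127794526-128187101, plus strand, 58 exons) had 785, 813, 1726 and 644 reads, or 1.47, 1.08, 2.28 and 1.61 FPKM. Both PLC levels were above both Huh7 levels, with ratios of 1.52 at 5 mM and 1.44 at 25 mM. The line test did not pass after adjustment (log2 0.61, SE 0.24, adjusted p = 0.0596). CYTOR (chr2:87454781-87636740, plus strand, 25 exons) had 668, 839, 1433 and 426 reads, or 1.77, 1.58, 2.67 and 1.5 FPKM. Its lines overlap, with ratios of 1.49 at 5 mM and 0.955 at 25 mM and a log2 difference of 0.27 (SE 0.27, adjusted p = 0.455). As for HULC, only 27.5% of the exon bases counted for CYTOR lie in the RefSeq gene.

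In the line test, 6 members could be tested, of which 2 were higher in PLC cells (MALAT1 and UCA1) and 2 were lower (NEAT1 and HULC). Among all 23217 genes tested, 21.1% were higher and 21.8% lower, so that a difference between these lines is common. Of 5302 lncRNAs tested, UCA1 was number 684 by the size of its difference, HULC number 1173, MALAT1 number 1678 and NEAT1 number 2780. The libraries of a line differ in glucose and are not replicate cultures. The spread behind the p-values is that left after a shared glucose effect is fitted, with 1 residual degree of freedom. edgeR moderates it with the spread of the other genes tested, and it is not a spread between cultures. The study screened lncRNAs for glucose by FPKM above 0.5 with a ratio above 1.5 or below 0.67. The paper took FPKM of transcripts from StringTie, whereas FPKM here rests on gene counts and merged exon lengths, which is an unlike measure. In Huh7 cells at 5 mM, HULC had 0.172 FPKM here but 4.67 with the length of its canonical transcript. The same limits were applied here to all genes and also to the lines, after 0.1 was added, and 5 members reached an FPKM above 0.5. At 5 mM, MALAT1, UCA1 and PVT1 were past the upper threshold and NEAT1 past the lower, beside 30.9% and 35.9% of all genes with that FPKM. CYTOR, at 1.49, also passed with nothing added (1.51), with TMM (1.53) or with DESeq2's size factors (1.55), whereas PVT1 fell out with 1 added (1.33). At 25 mM, MALAT1 and UCA1 were past the upper and NEAT1 past the lower, beside 32.9% and 32.2%.

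**Figure D1:**
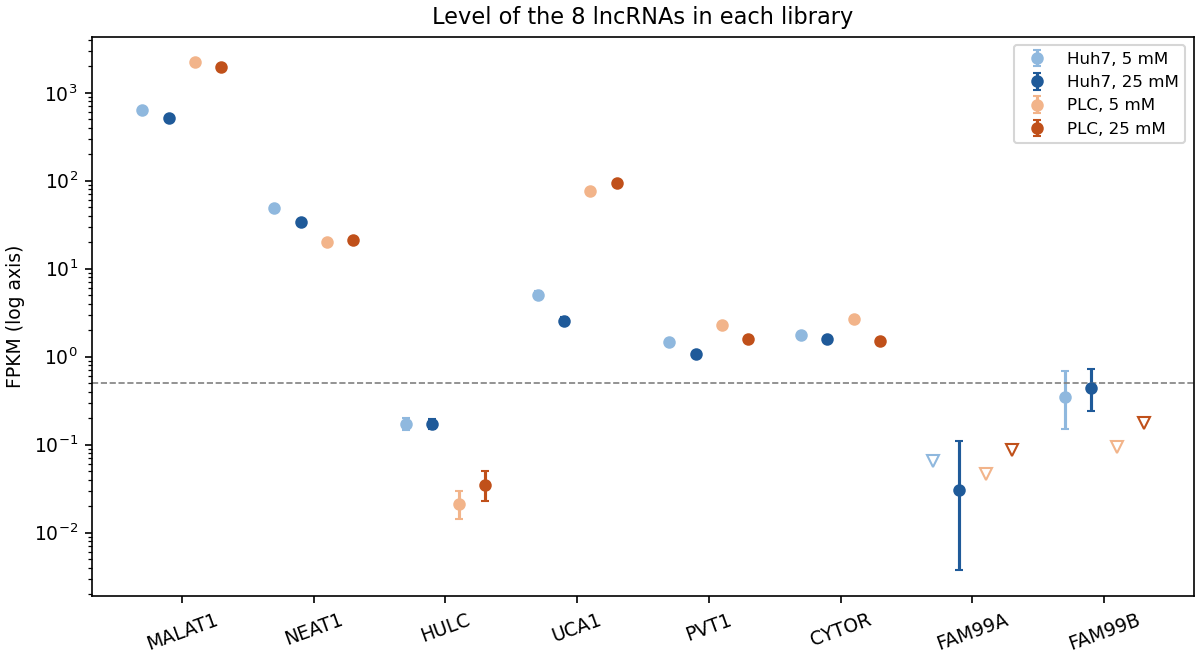
FPKM of each lncRNA (x axis, log y axis) in the 4 libraries, with 95% counting intervals. Open triangles mark 0 reads and stand at the FPKM of 3 reads, and the dashed line is FPKM 0.5. MALAT1 lies between 519 and 2222, and UCA1 is at 77.1 and 93.3 in PLC cells and at 5.02 and 2.55 in Huh7 cells. HULC, FAM99A and FAM99B are below 0.5, though the intervals of FAM99B in Huh7 cells reach above it.

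**Figure D2:**
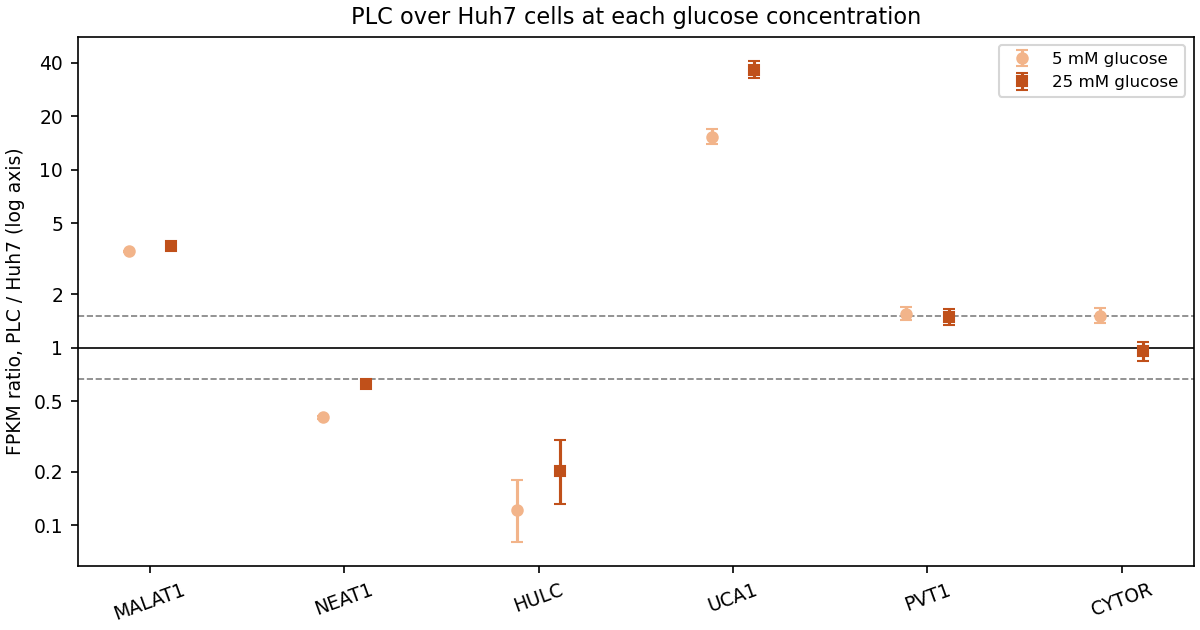
Ratio of PLC to Huh7 FPKM (log y axis, nothing added) at 5 mM (circles) and 25 mM glucose (squares), with 95% counting intervals. Dashed lines are the thresholds of 1.5 and 0.67. UCA1 and MALAT1 lie above 1 and NEAT1 and HULC below 1 at both concentrations.

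Within a library, the levels per exon length of the table fell in the order MALAT1, NEAT1, UCA1, CYTOR, PVT1, FAM99B, HULC and FAM99A in both Huh7 libraries. In both PLC libraries UCA1 stood above NEAT1. CYTOR and PVT1 cannot be ordered in PLC cells at 25 mM, where their intervals overlap (1.36 to 1.65 and 1.49 to 1.74 FPKM). FAM99B and HULC overlap as well in Huh7 cells at 5 mM. With canonical transcript lengths the order changes. CYTOR (27.3 FPKM) and PVT1 (11.1 FPKM) then stand above UCA1 (4.48 FPKM) in Huh7 cells at 25 mM, as they do at 5 mM. HULC (4.64 FPKM in Huh7 cells at 25 mM) then stands above FAM99B (0.436 FPKM) and close to UCA1. In PLC cells at 5 mM CYTOR (46.4 FPKM) and PVT1 (23.3 FPKM) then stand above NEAT1 (19.96 FPKM), and at 25 mM CYTOR (26.0 FPKM) does, with NEAT1 at 21.1 FPKM.

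The 8 lncRNAs together held 0.684% and 0.542% of all reads in the Huh7 libraries and 2.05% and 1.81% in the PLC libraries. Of the reads on lncRNAs they held 22.9%, 19.5%, 49.6% and 45.6%. Most of this was MALAT1, with 18.8% and 16.5% of lncRNA reads in Huh7 cells against 47.5% and 43.3% in PLC cells.

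**Figure D3:**
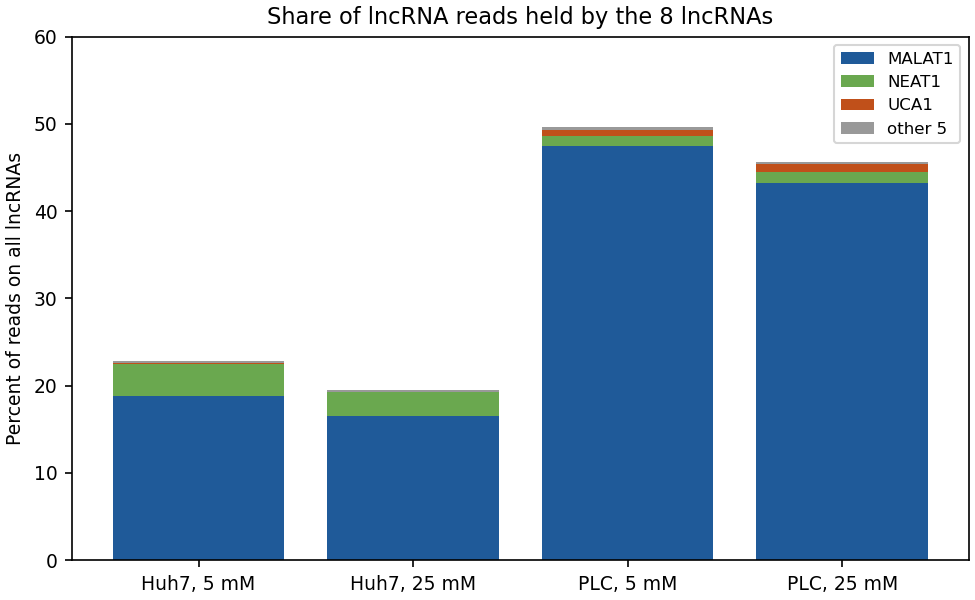
Percent of the reads on all lncRNAs that fell on MALAT1, NEAT1, UCA1 and the other 5 members in each library (stacked bars from 0). The Huh7 bars reach 22.9% and 19.5%, and the PLC bars 49.6% and 45.6%.

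High against low glucose was the comparison the study was built for. MALAT1 was lower at 25 mM in both lines, with a ratio of 0.814 (0.808 to 0.820) for Huh7 and of 0.873 (0.869 to 0.877) for PLC. PVT1 was lower as well, with 0.753 in Huh7 cells (interval without the added 0.1, 0.666 to 0.813) and 0.716 in PLC cells (0.642 to 0.771). Both genes kept a ratio under 1 with edgeR's TMM and DESeq2's size factors, and PVT1 in PLC cells was then at 0.662 and 0.656, past the lower threshold. The shared glucose change was a log2 value of -0.33 for MALAT1 (SE 0.14, adjusted p = 0.507) and -0.55 for PVT1 (SE 0.24, adjusted p = 0.542), and neither passed the test.

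MYC, whose gene ends 51575 bases before PVT1, had ratios of 0.633 and 0.546 in Huh7 and PLC cells. Its reads were 3463, 3078, 3909 and 1128, and its shared log2 change was -0.85 (SE 0.22, adjusted p = 0.144). TMEM75, on the opposite strand within an intron of PVT1, had 52, 57, 115 and 38 reads, with ratios of 0.797 and 0.644. AC103705.1, on the opposite strand with 295 exon bases shared with PVT1, had 17, 27, 94 and 11 reads, with ratios of 1.11 and 0.253. PVT1, MYC and TMEM75 thus had ratios below 1 in both lines and AC103705.1 in PLC cells only. None of the 4 genes passed the edgeR test, while DESeq2 called MYC. On the far side, CYRIB had ratios of 1.01 and 1.81.

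CYTOR had a ratio of 0.898 (interval without the added 0.1, 0.805 to 0.989) in Huh7 cells. In PLC cells its ratio was 0.577 (0.502 to 0.625), and it was the only member past the lower threshold there by library totals, though with 1 added to FPKM it was 0.680 and no longer past it. Its copy MIR4435-2HG (chr2:111006015-111523376, minus strand) had 2099, 2592, 3628 and 969 reads and gave 0.882 (0.828 to 0.930) and 0.518 (0.469 to 0.541). The ratio in PLC cells divided by that in Huh7 cells was 0.629 (0.540 to 0.731) for CYTOR and 0.574 (0.524 to 0.630) for MIR4435-2HG. This likeness of the copies cannot be told apart from reads shared between them. The shared change was -0.58 for CYTOR (SE 0.27, adjusted p = 0.610) and -0.67 for MIR4435-2HG (SE 0.26, adjusted p = 0.438) on the log2 scale.

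The start regions of this pair are shown because they too are nearly the same sequence. They are RefSeq promoter windows of 300 bases on GRCh38.p14, each 5′ to 3′ on the strand of its gene, CYTOR at chr2:87455177-87455476 on the plus strand and MIR4435-2HG at chr2:111495112-111495411 on the minus strand. Capitals mark TGANTCA, the letters of an AP-1 element.
CYTOR: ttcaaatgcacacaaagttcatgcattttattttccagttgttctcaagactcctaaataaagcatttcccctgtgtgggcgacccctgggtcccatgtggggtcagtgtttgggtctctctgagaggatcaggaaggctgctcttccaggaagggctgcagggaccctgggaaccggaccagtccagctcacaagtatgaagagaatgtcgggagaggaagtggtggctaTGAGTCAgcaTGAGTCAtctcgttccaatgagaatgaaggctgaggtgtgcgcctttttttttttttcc
MIR4435-2HG: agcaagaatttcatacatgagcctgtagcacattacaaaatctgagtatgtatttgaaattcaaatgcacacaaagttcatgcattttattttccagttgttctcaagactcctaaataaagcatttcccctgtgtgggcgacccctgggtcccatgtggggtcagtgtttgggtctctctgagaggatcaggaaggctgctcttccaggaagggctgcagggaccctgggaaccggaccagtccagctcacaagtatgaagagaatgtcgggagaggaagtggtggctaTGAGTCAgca
Bases 1 to 241 of the CYTOR window are identical to bases 60 to 300 of the MIR4435-2HG window. TGANTCA stands at 19 and again at 9 bases before the annotated start of CYTOR. In MIR4435-2HG it stands 40 bases after the annotated start, and the window ends before the place of the second match. On either strand, TGANTCA is found in 7.71% of the 35116 promoter windows. Of the members, 4 had a window. The CRE (TGACGTCA, in 1.85% of all windows), E-box (CACGTG, 7.26%), HNF4A (CAAAGTCCA, 0.384%), HNF1 (GTTAAT, 6.88%) and TEAD (GGAATG, 14.0%) letters were in none of the windows of MALAT1, CYTOR, FAM99A and FAM99B. A match of letters is a description and does not show a bound site.

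UCA1 and NEAT1 had ratios on opposite sides of 1 in the lines. UCA1 was lower at 25 mM in Huh7 cells, at 0.518 (interval without the added 0.1, 0.439 to 0.588), and higher in PLC cells, at 1.21 (1.17 to 1.25). By library totals it was the only member past the lower threshold in Huh7 cells, and with TMM NEAT1 passed it too, at 0.669. The PLC ratio divided by the Huh7 ratio was 2.38 (2.05 to 2.77), an interval of counting error that does not include 1. NEAT1 was lower at 25 mM in Huh7 cells, at 0.687 (0.674 to 0.699), and in PLC cells its ratio was 1.06 (1.03 to 1.09) by library totals but 0.974 with TMM and 0.966 with DESeq2's size factors, so its direction there depends on the scaling. The ratio of its ratios was 1.54 (1.49 to 1.59), and 1.46 and 1.43 with those scalings. The shared log2 change was -0.41 for UCA1 (SE 0.27, adjusted p = 0.789) and -0.31 for NEAT1 (SE 0.20, adjusted p = 0.781).

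HULC was nearly level in Huh7 cells, at 0.994 (0.817 to 1.21) with nothing added, and its ratio in PLC cells was 1.64 with an interval that includes 1 (0.944 to 2.85). A change of HULC with glucose was not detectable at this depth. FAM99B had a ratio of 1.24 in Huh7 cells (0.487 to 3.42) from 8 and 14 reads, which was not detectable as a difference either.

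Of the 6 members tested for a shared glucose change, 0 passed by edgeR, DESeq2 or limma-voom, and 2 had an unadjusted edgeR p under 0.05, MALAT1 and PVT1. Among all genes 0.0646% were called higher and 0.314% lower, and 8.51% had an unadjusted p under 0.05. By the same thresholds, 1 of 5 members was lower in Huh7 cells and 0 were higher, beside 13.7% and 14.1% of all genes. In PLC cells, 1 of 5 was lower and 0 were higher, beside 17.0% and 26.2%. That lean of all genes in PLC cells towards higher levels (5709 higher and 3700 lower by totals) was nearly gone with TMM (4804 and 4560) and with DESeq2's size factors (4734 and 4648).

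**Figure D4:**
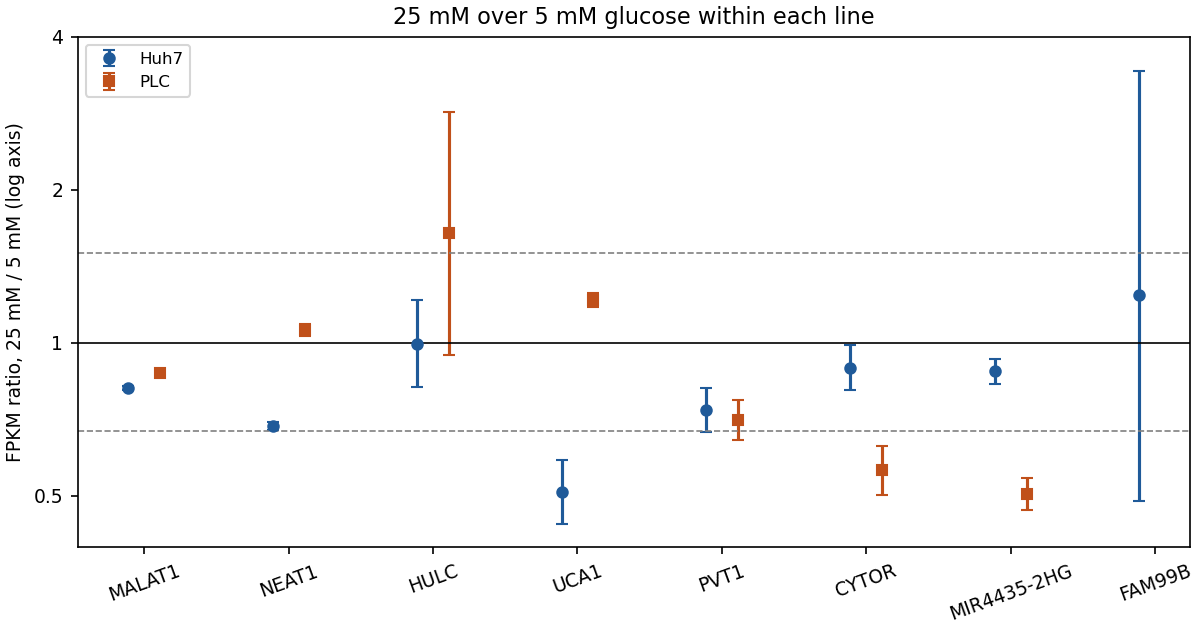
Ratio of FPKM at 25 mM to 5 mM glucose (log y axis, nothing added) in Huh7 (circles) and PLC cells (squares), with 95% counting intervals. Dashed lines are 1.5 and 0.67. MALAT1, PVT1, CYTOR and MIR4435-2HG lie below 1 in both lines, and UCA1 is at 0.508 for Huh7 and 1.21 for PLC.

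Genes that work with these RNAs were described from lists chosen by function, beside a median log2 line difference of -0.03 over all genes tested. Of all genes tested, 21.1% were higher and 21.8% lower in PLC cells. Of 16 paraspeckle protein genes, 9 were lower in PLC cells and 1 was higher, with a median of -0.61. NONO, a core protein that binds NEAT1, was the higher gene (log2 0.56, adjusted p = 0.0307), and SMARCA4, a subunit of chromatin remodelling complexes, was the lowest (log2 -3.01, adjusted p = 3.35e-07). Of 13 nuclear speckle genes, 7 were lower and 1 was higher, with a median of -0.55, and they include the splicing factor SRSF2 (log2 -1.61, adjusted p = 0.00102) and the speckle scaffold SRRM2 (log2 -1.15, adjusted p = 0.000328). Of 12 genes for the processing or binding of the MALAT1 3′ end, 4 were higher and 2 lower, with a median of -0.02. RPP25, an RNase P subunit, had 10.5 and 7.76 FPKM in Huh7 cells against 85.5 and 79.1 FPKM in PLC cells (log2 3.19, adjusted p = 2.68e-07), while POP1, the largest protein of RNase P, was lower (log2 -1.21, adjusted p = 0.00766).

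Of 13 reported partners and regulators of HULC, UCA1, PVT1 and NEAT1, 4 were lower in PLC cells and 1 was higher. The median was -0.40, and of all genes tested 21.8% were lower and 21.1% higher. IGF2BP1, an RNA-binding protein linked to HULC decay, was lower (log2 -1.49, adjusted p = 5.80e-05), and PRKACB, a catalytic subunit of protein kinase A, was higher (log2 0.80, adjusted p = 0.0153). Of 24 tested genes among 30 other lncRNAs of liver cancer, 5 were higher and 6 lower, near the shares of all genes tested. The median was -0.27. HOXA-AS2 was the most raised of those named (log2 1.45, adjusted p = 0.00302) and DLEU2 the most lowered (log2 -2.10, adjusted p = 0.000319). SNHG1, a host of small nucleolar RNAs, had the lowest mean glucose ratio of that list, with 22.4 and 21.0 FPKM in Huh7 cells against 44.2 and 11.1 FPKM in PLC cells (shared log2 -1.12, adjusted p = 0.308). Over all the lists, markers included, 0 of 95 tested genes passed for glucose by edgeR. An unadjusted p under 0.05 was found for 16 of them, beside 8.51% of all genes tested. DESeq2 called MYC alone of the listed genes.

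Markers of the hepatocyte moved with the line. Of 11 such genes, 10 were lower in PLC cells and 0 were higher, beside 21.8% and 21.1% of all genes tested. The median log2 difference of the 11 was -2.24. ALB (albumin) had 2017 and 2039 FPKM in Huh7 cells against 52.5 and 72.3 FPKM in PLC cells, and TTR and FOXA2 had 4 reads each in the PLC library at 5 mM and 0 in that at 25 mM. HNF4A, a factor that sets hepatocyte identity, was between 29.0 and 38.5 FPKM in all 4 libraries. The summed FPKM of the list was 5269 and 5470 in Huh7 cells against 767 and 1652 in PLC cells. Of 13 markers of leukocytes, endothelium, fibroblasts and bile duct, CD3E and KDR were at 0 everywhere, 1 of 6 tested was higher in PLC cells and 4 were lower, and the summed FPKM was 65.1, 63.6, 8.27 and 7.49. KRT19, a bile duct keratin, was at 30.1 and 23.9 FPKM in Huh7 cells with 1 and 0 reads in PLC cells. Of the members of liver-enriched expression, HULC and FAM99B moved the same way as the hepatocyte markers, and FAM99A had too few reads to tell. Most exon bases counted for HULC lie outside its RefSeq gene, and FAM99B rests on few reads. How far these differences go together with those of the markers was not tested.

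The lncRNAs whose levels followed each member most closely over the 4 libraries were sought among the 1749 lncRNAs that reached 20 reads in each of the libraries. The measure was the root mean square distance between centred log2 FPKM profiles, a description over 4 points. Nearest to MALAT1 were AC073651.1 (0.0298) and DUXAP8 (0.0537), and nearest to NEAT1 were AC064836.3 (0.0675) and SCN1A-AS1 (0.0747). HULC was followed by PARD6G-AS1 (0.0293) and AC096721.1 (0.0845), and PVT1 by NBR2 (0.0495) and AC004967.2 (0.0496). For CYTOR these were AC087749.1 (0.0522) and AP001029.2 (0.0531). Within a distance of 0.2 lay 27 lncRNAs for MALAT1, 51 for NEAT1, 4 for HULC, 63 for PVT1 and 50 for CYTOR. Most pairs named are thus among many, and some rest on few reads, as AC073651.1 with 39, 46, 202 and 89. UCA1 had no lncRNA within a distance of 0.2, and its nearest were LINC01588 (0.242) and DLGAP1-AS1 (0.291).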

How the data were processed

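RNA of Huh7 and PLC cells was measured by RNA-seq in 4 libraries, 1 for each line and glucose concentration, with groups taken from the sample labels. The authors extracted RNA with TRIzol, removed rRNA (RiboMinus) and built directional libraries. The deposited values are counts, whole numbers of reads on each gene with no normalization. The submitters' processing notes name HISAT2, featureCounts and hg38. Versions, annotation release, strand setting and the handling of reads with several matches are not given in the sources used here.

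Of 59657 lines in the table, 59652 were used, and 5 of a broken ANK2 entry were left out. Gene classes came from GENCODE release 44, with 38133 genes matched by symbol and 21152 by position (overlap at least 0.5), and 367 not matched. FPKM was calculated from the counts, the table's exon length and the library total. Ratios were taken after 0.1 was added to both FPKM values, and their exact (Clopper-Pearson) 95% intervals without it. Shares have exact binomial and levels exact Poisson intervals. A fold against 0 reads is a bound computed per library against 3 reads. The ratio of ratios is a conditional odds ratio with an exact interval, replaced for MALAT1 and NEAT1, whose counts are too large for it, by the sample odds ratio with a log-normal interval.

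Both tests come from 1 additive fit of line and glucose with edgeR 4.0.16 (R 4.3.3, quasi-likelihood test, filterByExpr, TMM), adjusted by Benjamini-Hochberg over 23217 genes, with an adjusted p under 0.05 called. An interaction could not be fitted with 1 library a condition. The SE given with edgeR values is the size of the log2 fold change divided by the square root of its F statistic. It is not a spread between replicates. The scripts were tested on simulated counts. DESeq2 1.42.0 and limma 3.58.1 were alternatives, as were other scalings, filters and added values. Sequences were read from hg38, GENCODE and RefSeq tables, and primers from the study's supplement.

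The 8 members and all gene lists were chosen with earlier results of these data known. Named beside the members are the listed genes with the highest and lowest mean ratios among those with at least 20 reads in every library, marker genes, overlapping genes and nearest protein-coding genes with 20 reads in a library, the copy of CYTOR, and the 2 closest lncRNA profiles. FP236383.5 was named after its value was seen. Not every neighbouring gene is reported here.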

Additional observations from a re-analysis of the deposited data

Results flagged for a closer look

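UCA1 was flagged because its levels at 25 and 5 mM glucose moved in opposite directions in the lines, with a Huh7 ratio of 0.518, a PLC ratio of 1.21 and counting intervals on opposite sides of 1. NEAT1 was flagged for the same reason by library totals, with a Huh7 ratio of 0.687 and a PLC ratio of 1.06, though its PLC ratio was 0.974 with TMM and 0.966 with DESeq2's size factors. Neither difference between the lines was tested, since each condition has 1 library. No group had enough samples to look for outlying samples.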

How the results depend on the processing

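All 42 values of the line difference under the alternatives (6 members, 7 settings) kept their direction and their side of the threshold. With no filter on low counts edgeR called FAM99B as well, which DESeq2 did not. Under a glucose fit without the cell line, UCA1 reversed to a log2 change of 0.11 (adjusted p = 1), and the other 41 values kept theirs. Genes called for the lines fell to 3171 higher and 3169 lower with at least 10 counts in every library, a setting that tests fewer genes. For glucose, 15 genes higher and 73 lower became 0 and 19 with library totals, 242 and 284 with no filter, 0 and 27 with at least 10 counts, 0 and 0 without the line, and 71 and 126 with DESeq2, and the cause was not tested. Genes past the glucose thresholds in Huh7 cells (3081 higher, 2987 lower) became 1569 and 1523 with 1 added to FPKM, 1733 and 1694 with FPKM over 0.5 in both libraries, and 1768 and 1407 with at least 20 reads. In PLC cells 5709 and 3700 became 3554 and 2428, 3663 and 2254, and 3463 and 2428. Between the lines, 7265 and 8425 became 4155 and 4561 at 5 mM, and 7829 and 7678 became 4446 and 4095 at 25 mM, when both libraries had to pass. Members past the lower glucose threshold became 2 in Huh7 cells with TMM, where NEAT1 moved to 0.669, and in PLC cells 0 with 1 added and 2 with TMM or DESeq2's size factors, where PVT1 was at 0.662 and 0.656. Without the RN7S genes the members' share of reads was 0.698%, 0.553%, 2.13% and 1.89%. The length of the canonical transcript, chosen after seeing the data, put HULC between 0.574 and 4.67 FPKM. The ratio of the glucose ratios of MALAT1 was 1.07 by totals, 1.01 with TMM and 0.994 with DESeq2's size factors. No paired analysis was possible because each condition has 1 library and no replicate numbers that pair cultures. The glucose fit itself compares the concentrations within each line, and no replicate could be left out. With 1 library a condition, culture-to-culture spread is not measured, and at 3 reads or fewer no fold can be given.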
